A study of Mus musculus with 12 samples.

Results

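DNA methylation was examined at 41 genes of glycolysis and the hypoxia response: transporters of glucose and lactate, the enzymes of glycolysis and their regulators, enzymes that set the fate of pyruvate and lactate, the hypoxia-inducible factor (HIF) subunits and Vhl, and HIF target genes. The promoter was the stretch around the transcription start that reached 1500 bp before it and 500 bp after it, and it was used when 3 or more of its cytosines were listed in all 12 RRBS libraries. By this rule 30 of the 41 promoters were measured, with 489 cytosines, among 13895 promoters measured over all autosomal genes. RRBS (reduced representation bisulfite sequencing) reads CpG-rich restriction fragments after bisulfite has converted unmethylated cytosines, and the level of a cytosine is given as a beta value from 0 (no read methylated) to 1 (all reads methylated). The promoter value was the mean beta of its cytosines.

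The libraries came from a pair of immortalized mouse embryonic fibroblast (iMEF) lines. The experimental line had the genotype R26M2rtTA/+;TetOcre;Sdhc fl/fl and the control line carried the same rtTA and TetOcre transgenes with Sdhc fl/wt. Both were given 1 µg/mL doxycycline, which turns on Cre through rtTA and removes an exon of each floxed Sdhc allele, so the control cells also lost 1 allele. DNA was taken before doxycycline (day 0) and on days 5, 9, 12, 16 and 20, with 1 library per line and day. The comparison set the 5 experimental libraries of days 5 to 20 against the 6 control libraries, with the experimental day 0 library kept apart. Each genotype was a single line, so an SD here is the spread between days of 1 line, p-values measure only that spread, and an effect of Sdhc loss cannot be told apart from any other difference between the lines. Whether the lines differed at a gene before doxycycline could be read only from the single day 0 library of each.

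Glycolysis breaks glucose down to pyruvate in the cytosol, and lactate dehydrogenase and the monocarboxylate transporters carry the product on to lactate and out of the cell. HIF is a pair of an oxygen-regulated alpha subunit (Hif1a, Epas1 or Hif3a) and Arnt. In oxygen the alpha subunit is hydroxylated by prolyl hydroxylases and degraded through Vhl, and the hydroxylases are inhibited by succinate, the metabolite that builds up when succinate dehydrogenase is lost. Stabilized HIF binds a short core motif that holds a CpG, and binding is known to be sensitive to methylation of that CpG. Succinate also inhibits the TET enzymes that oxidize methylcytosine, which is why promoter methylation at these genes is of interest in this model.

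To show which CpGs of the promoters carry that core, the letters ACGTG and GCGTG were searched on both strands (CACGT and CACGC on the reverse strand) in the RefSeq promoter windows of GRCm38.p6, 250 bases before to 50 after each curated start. A match is a string of letters and not a known binding site. Such a string stood in 43.8% of the 32851 windows of all genes, with every curated start counted. Of the 41 genes, 36 had a window, and 27 of these (75%) held a string at their most upstream start. These shares count unlike sets of windows and were not compared. The stretches below are upstream of the start of genes in which a motif cytosine was measured. They run 5′ to 3′ on the strand of the gene, with the motif letters in capitals.
Slc16a3 (chr11:120948937-120949066, plus strand, positions -130 to -1 from the start): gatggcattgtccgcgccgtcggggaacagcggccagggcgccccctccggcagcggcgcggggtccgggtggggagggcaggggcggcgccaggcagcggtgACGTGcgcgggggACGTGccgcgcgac
Slc2a1 (chr4:119108615-119108744, plus strand, -130 to -1): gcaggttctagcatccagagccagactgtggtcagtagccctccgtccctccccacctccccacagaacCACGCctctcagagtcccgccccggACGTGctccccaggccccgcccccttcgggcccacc
Ldha (chr7:46845644-46845803, plus strand, -160 to -1): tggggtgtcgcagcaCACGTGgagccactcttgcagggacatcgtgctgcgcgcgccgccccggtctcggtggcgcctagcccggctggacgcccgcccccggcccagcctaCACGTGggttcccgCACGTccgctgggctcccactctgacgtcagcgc
Slc16a1 (chr3:104638454-104638563, plus strand, upstream of the start): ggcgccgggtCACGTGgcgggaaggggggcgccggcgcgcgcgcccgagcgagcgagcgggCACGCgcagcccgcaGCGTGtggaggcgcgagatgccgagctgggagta
Pfkfb3 (chr2:11553930-11554039, minus strand, -110 to -1): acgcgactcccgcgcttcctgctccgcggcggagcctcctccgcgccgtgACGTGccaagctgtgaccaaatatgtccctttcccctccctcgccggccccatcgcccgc

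Most motif cytosines were unmethylated, and among those listed in 8 or more libraries the intermediate means lay in Slc16a3 and Aldoc. In all 12 libraries 7 motif cytosines of 4 genes were listed, and 6 of them had a mean beta under 0.1. Over all genes, 2413 of 2730 motif cytosines listed in all libraries (88.4%) were under 0.1. With cytosines listed in 8 or more libraries counted, 15 of 18 in 11 genes had a mean under 0.1.

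In Ldha, which makes lactate from pyruvate, the motif cytosines at -142, -46 and -32 were at 0 in each of the 11, 8 and 8 libraries that listed them. The cytosine of the ACGTG string of Slc2a1, the main glucose transporter of fibroblasts, at -35, was at 0 in the 10 libraries that listed it, and that of Ddit4, an inhibitor of mTORC1, at -185, was at 0 in 11. The other Slc2a1 motif cytosine, at -58, was at 0 in 7 of 8 libraries and 0.545 in experimental day 12. The Edn1 (endothelin-1 precursor) cytosine at 23 bp past the start and the Slc16a1 (lactate transporter MCT1) cytosine at 22 bp past the start were at 0 in all 12. The other listed Slc16a1 motif cytosines, at -147 and -133, reached at most 0.0769, in the experimental day 0 library. The CpG of the CACGTG string of Slc16a1 printed above was listed in no library. At Pfkfb3, which makes the activator of phosphofructokinase, the cytosine at -58 was at 0 in 10 of 11 libraries and 0.0667 in experimental day 16.

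Slc16a3 encodes the lactate exporter MCT4, a classical HIF target, and its motif cytosines were partly methylated. The cytosine at -26 (chr11, 120949041) had beta values of 0.5, 0.667, 0.541, 0.02, 0.421 and 0.321 in the 6 control libraries in order of day. In the experimental line it was 0.52 at day 0 and 0.0476, 0, 0.545, 0.435 and 0.15 afterwards. The line means were 0.236 ± 0.242 (SD, n = 5) and 0.412 ± 0.224 (SD, n = 6), values of both lines overlapped, and limma gave an adjusted p of 0.703. Its partner on the opposite strand, at -25, was listed in only 2 libraries, experimental day 16 and control day 20, and was at 1 in both. The cytosine at -12, on the opposite strand, was listed in 11 libraries and ranged from 0 to 0.667. Aldoc, the brain-type aldolase, also had an intermediate motif cytosine, at -49, with a mean of 0.359 over the 9 libraries that listed it.

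**Figure D1:**
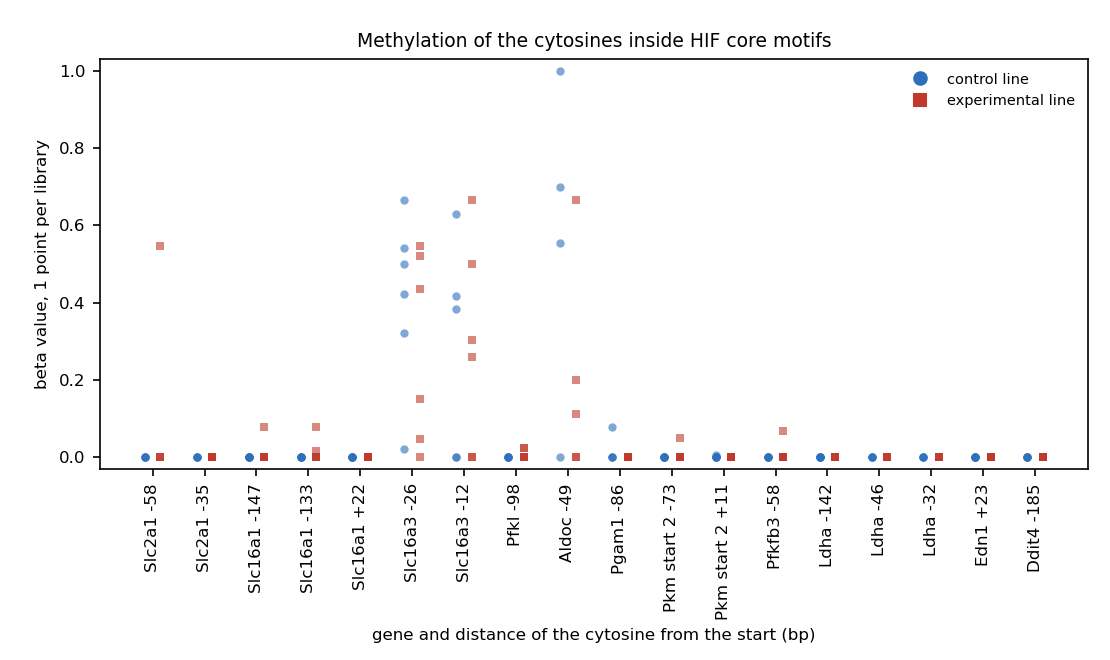
Beta value (0 to 1, vertical axis) of each motif cytosine listed in 8 or more libraries, 1 point per library, with the control line as blue circles and the experimental line as red squares, both including day 0. Slc16a3 and Aldoc have points spread between 0 and at least 0.667, Slc2a1 has 1 point at 0.545, and the other cytosines sit at or below 0.0769.

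Most of the 30 promoters were unmethylated in both lines. The mean beta over the 12 libraries was under 0.1 in 24 of 30 (80%), against 67.7% of all promoters, and in 19 of them the highest library also stayed under 0.1. The median promoter mean was 0.0172, against 0.0231 over all promoters, and 170 of the 489 cytosines were at 0 in all 12 libraries. Intermediate levels were found at Slc16a3, Gpi1, Eno2, Angptl4 and Ndrg1, and a high level at Adm.

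**Figure D2:**
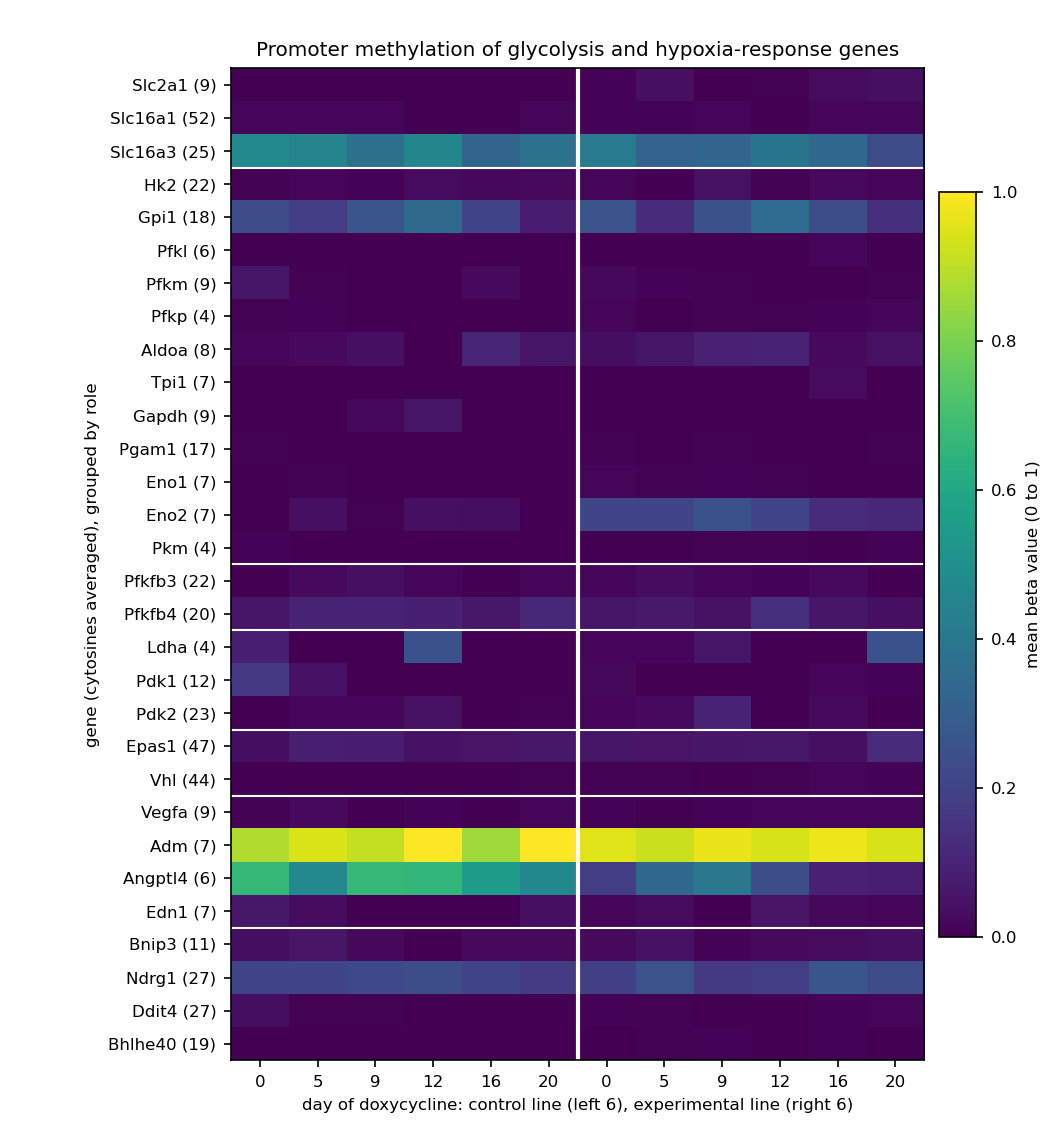
Mean promoter beta (colour, 0 to 1) of the 30 measured genes (rows, with the number of cytosines averaged, white lines between roles) in the 6 control libraries (left) and 6 experimental libraries (right), labelled by day. Adm is high throughout, Angptl4 is higher in the control libraries, Eno2 is higher in the experimental libraries, and most rows are dark in both lines.

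Between the lines, 1 of the 30 promoters was higher in the experimental libraries (Eno2) and 1 was lower (Angptl4) at an adjusted p under 0.05 by limma over all promoters, where 2.45% of promoters passed (235 higher and 105 lower). With no adjustment, 6 of 30 (20%) had p under 0.05, against 18% of all promoters. The ranges of the lines did not overlap at these same 2 genes, against 4.27% of all promoters. The median difference was 0.00251 for the 30 genes and 0.00244 for all promoters, 22 of 30 and 8787 of 13895 had the higher mean in the experimental line, and a difference of at least 0.05 in either direction was found in 10% of the genes and 19.9% of all promoters. At day 0 the lines already differed by more than 0.2 at 2 of the 30, again Eno2 and Angptl4, against 5.61% of all promoters.

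**Figure D3:**
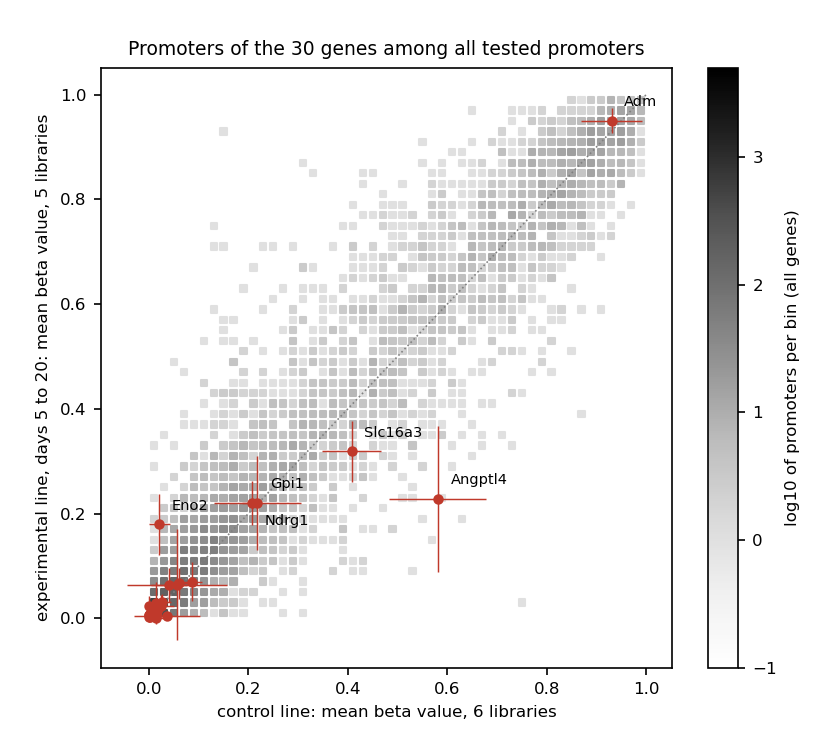
Mean promoter beta in the experimental libraries of days 5 to 20 (vertical) against that in the 6 control libraries (horizontal), with the 30 genes as red points with SD bars over libraries and all 13895 promoters as grey bins shaded by the log10 number of promoters. Most of the genes lie at the lower left close to the dotted line of equality, with Eno2 above it and Angptl4 below it.

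Eno2 is the neuron-type enolase, and its promoter was the one called among the 12 glycolytic enzymes measured. The window (chr6:124769174-124771173, mm10, minus strand) held 7 measured cytosines, all past the start and inside the gene, the farthest at 493 bp. Its mean beta was 0, 0.0408, 0.00424, 0.0414, 0.0366 and 0 in the control libraries of days 0 to 20. In the experimental line it was 0.207 at day 0 and 0.208, 0.25, 0.201, 0.127 and 0.113 on days 5 to 20. Every experimental library, day 0 included, was above every control library, and the values of days 16 and 20 were the lowest of the experimental line. The means were 0.18 ± 0.0581 (SD, n = 5) and 0.0205 ± 0.021 (SD, n = 6). On the M-value scale, the log2 ratio of methylated to unmethylated share, the difference was 3.20 ± 0.56 (SE; limma adjusted p = 0.0179).

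Of the 7 cytosines of Eno2, 3 neighbours at 444, 460 and 472 bp past the start were called among single cytosines (limma adjusted p = 0.0312, 0.00237 and 0.00074). The calls at 460 and 472 bp held with each of the 11 libraries left out in turn, and that at 444 bp was lost in 8 of the 11 (adjusted p up to 0.077). All 3 were lost in a fit with a block for day, which called 0 of all 508351 cytosines tested. At 460 and 472 bp all 6 control libraries were at 0, while the experimental libraries after day 0 lay between 0.115 and 0.472 at the first and between 0.125 and 0.306 at the second. Over the 3 cytosines the experimental day 0 library had a mean of 0.329. The 3 cytosines from 488 to 493 bp, none of them called, had means of 0.138 ± 0.0304 (SD, n = 5) and 0.0419 ± 0.0478 (SD, n = 6). When cytosines listed in 10 libraries or more were averaged instead, the difference was 0.76 on the M-value scale and was no longer called (adjusted p = 0.19). The rest of the Eno2 gene, with 10 cytosines, had means of 0.545 ± 0.0625 (SD, n = 5) and 0.491 ± 0.0243 (SD, n = 6) and was not called (adjusted p = 0.322).

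**Figure D4:**
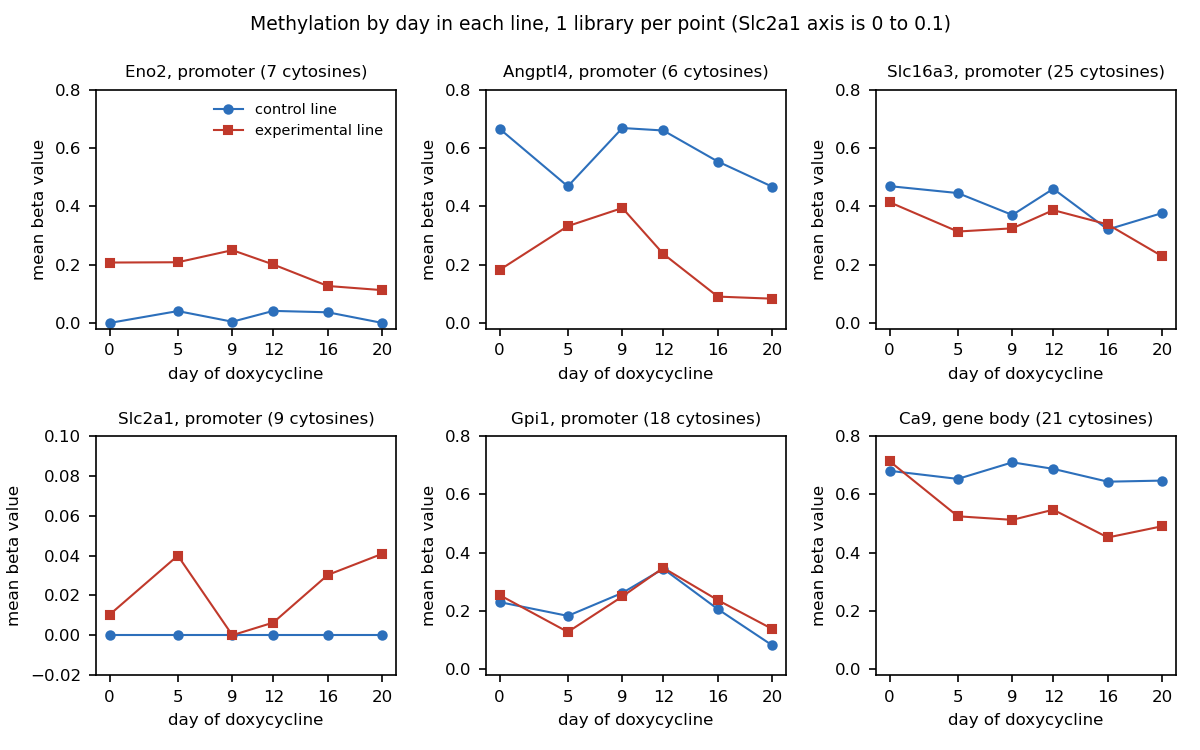
Mean beta (vertical) by day of doxycycline (horizontal) for the control line (blue circles) and the experimental line (red squares), 1 library per point, at 5 promoters and the Ca9 gene body, with the Slc2a1 axis enlarged. Eno2 and Angptl4 are apart at day 0 already, Gpi1 moves with day in both lines, and the Ca9 gene body starts together and is lower in the experimental line from day 5.

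Among the secreted HIF targets, Angptl4, an inhibitor of lipoprotein lipase, differed the other way. Its window (chr17:33781076-33783075, minus strand) held 6 measured cytosines between -51 and -1. The start here was the upstream end of the annotated gene and not a curated start. The control libraries had mean betas of 0.667, 0.469, 0.669, 0.661, 0.554 and 0.468 in day order. The experimental line had 0.182 at day 0 and then 0.333, 0.395, 0.237, 0.0905 and 0.0833. The highest experimental value, that of day 9, was below the lowest control value, and in the experimental line days 5, 9 and 12 were above day 0 and days 16 and 20 below it. The means were 0.228 ± 0.14 (SD, n = 5) and 0.581 ± 0.0976 (SD, n = 6), with an M-value difference of -2.43 ± 0.53 (SE; limma adjusted p = 0.0432). The call was close to the threshold: it was kept without experimental day 9 (adjusted p = 0.0308) and lost when any of the other 10 libraries was left out, with adjusted p up to 0.0863. Of the 6 cytosines 5 had the lower mean in the experimental line, and none of them was called alone.

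The other secreted targets did not pass the test. Vegfa, the vascular endothelial growth factor, stayed between 0 and 0.024 over its 9 cytosines, and Edn1 between 0 and 0.0625 over 7. Adm, the vasodilator peptide adrenomedullin, was the highest of the 30, at 0.95 ± 0.0236 (SD, n = 5) and 0.931 ± 0.0607 (SD, n = 6). Its 7 measured cytosines lay between -1232 and -1172, so the level at the start itself was not read by them.

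Downstream of the Adm start, 7 cytosines within 47 bp (519 to 566 bp past the start) behaved differently in the control line. Their mean was 0, 0.118, 0.352, 1, 0.947 and 0.463 in the 6 control libraries by day. Experimental values were 0.183 at day 0 and 0.229, 0.0541, 0.149, 0.0229 and 0.0625 afterwards. The control libraries of days 9, 12, 16 and 20 were thus above every experimental library. Control day 12, the highest, listed the fewest cytosines of all libraries, and the part of this in its value was not tested. The whole Adm gene body of 9 cytosines, at 0.18 ± 0.0732 (SD, n = 5) and 0.479 ± 0.338 (SD, n = 6), did not pass (limma adjusted p = 0.299). Cytosines this close are read on the same fragments and are not independent, and no read count was given with the values.

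Of the transporters, Slc2a1 and Slc16a1 were unmethylated and Slc16a3 was not. All 9 promoter cytosines of Slc2a1, 177 to 252 bp past the start, were at 0 in all 6 control libraries. In the experimental line they had a mean of 0.0103 at day 0 and 0.04, 0, 0.00635, 0.0303 and 0.0409 later, together 0.0235 ± 0.0192 (SD, n = 5), and limma gave an adjusted p of 0.0893. Experimental day 9, at 0, overlapped the controls. Of the 11 fits that each lacked 1 library, only the one without that library called the Slc2a1 promoter (adjusted p = 0.021). In the other 10 the adjusted p was up to 0.175, and none of the 12 other settings called it. Slc16a1 stayed between 0 and 0.0188 over 52 cytosines, the most of any of the genes.

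The Slc16a3 promoter (chr11:120947567-120949566, 25 cytosines) was at 0.47, 0.446, 0.371, 0.461, 0.321 and 0.378 in the control line. Experimental libraries were at 0.415 on day 0 and 0.314, 0.325, 0.387, 0.338 and 0.229 afterwards. Values of the lines overlapped, and the difference of -0.55 ± 0.23 (SE) in M-value had a limma adjusted p of 0.232. Within the promoter the level differed with position. The 3 cytosines between -1420 and -1295 had means of 0.848 and 0.811 in the experimental and control lines. The 7 between -64 and -20 took in only the more upstream of the motifs printed above and had 0.236 and 0.267. In a block of 7 cytosines just upstream (120948950 to 120948986), control day 12 stood at 0.825 where the other control libraries lay between 0.0768 and 0.219 and the experimental libraries of days 5 to 20 between 0 and 0.168. Control day 12 listed the fewest cytosines of all libraries (932307), and the part of this in its values was not tested. With cytosines listed in 10 libraries or more, the Slc16a3 difference changed sign to 0.11 in M-value (adjusted p = 0.856).

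**Figure D5:**
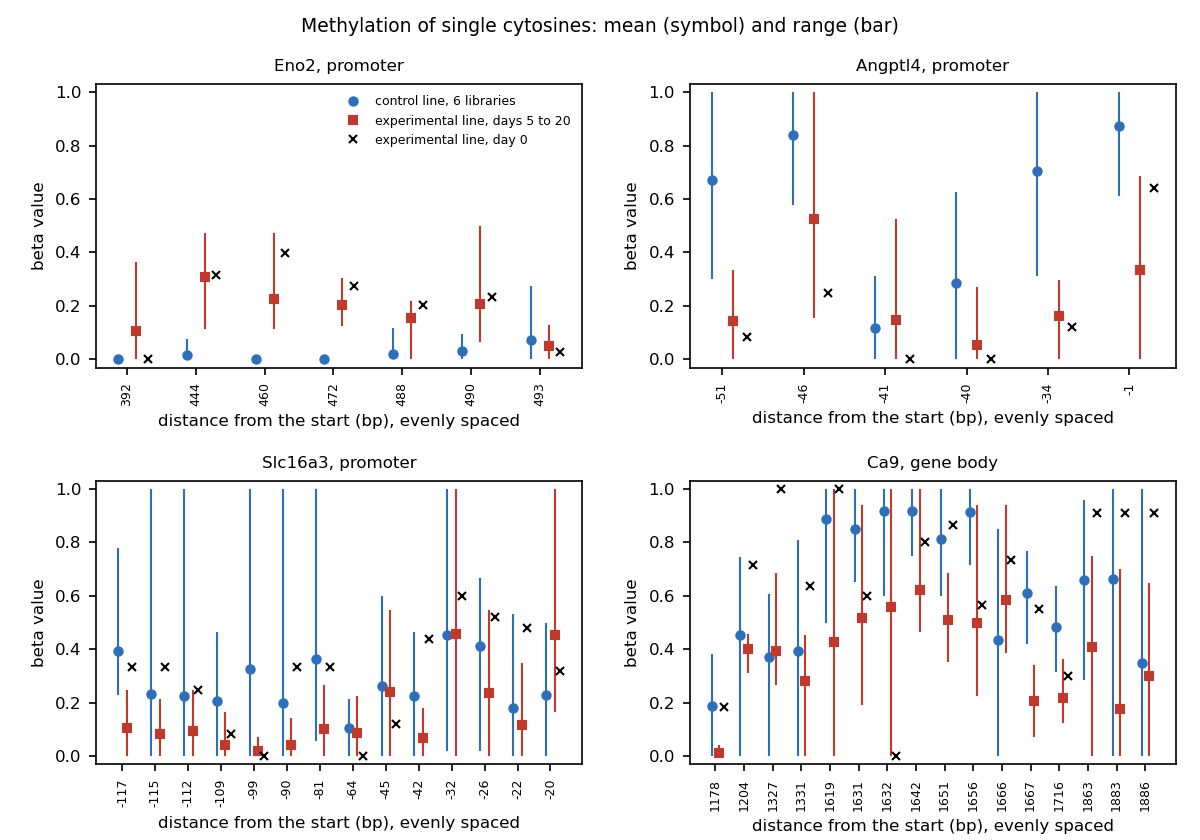
Beta value (vertical) of single cytosines at their distance from the start (horizontal, in order but not to scale) for the Eno2 and Angptl4 promoters, the Slc16a3 promoter near its start and part of the Ca9 gene body. Symbols are means and bars the range over the 6 control libraries (blue) and the experimental libraries of days 5 to 20 (red), crosses are experimental day 0. Eno2 shows 3 cytosines with both lines apart, Slc16a3 shows overlapping ranges, and at Ca9 most experimental means lie below the control means while the crosses lie on both sides of them.

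The enzymes of glycolysis had the lowest promoter levels of the roles, with a median of 0.00645 over the 12 of 14 measured, and 10 of the 12 had means under 0.1. Pfkl, Pfkm and Pfkp (phosphofructokinases), Tpi1, Gapdh, Pgam1, Eno1 and Pkm (pyruvate kinase) did not exceed 0.0573 in any library, and Hk2 (hexokinase) reached 0.0445. Aldoa, the muscle-type aldolase, reached 0.104. At the second Pkm start, 22 cytosines had means of 0.00545 and 0.00421 in the experimental and control lines. None of these 10 enzymes passed the test (lowest limma adjusted p 0.296, Eno1).

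Gpi1, glucose-6-phosphate isomerase, varied widely within both lines. Its promoter (chr7:34229837-34231836, minus strand, 18 cytosines) was at 0.23, 0.183, 0.262, 0.345, 0.206 and 0.0816 in the control line by day. In the experimental line it was at 0.254, 0.128, 0.25, 0.348, 0.237 and 0.138 on those days. In both lines day 12 was the highest library, and days 5 and 20 were the lowest. The means were 0.22 ± 0.0906 (SD, n = 5) and 0.218 ± 0.0873 (SD, n = 6), with a limma adjusted p of 0.985. The 11 cytosines from 145 to 224 bp past the start had a mean of 0.316 over the libraries, although 1 of them was at 0 throughout. The 7 from 90 to 139 bp had a mean of 0.0742, and their single means ran from 0.0111 to 0.402.

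The regulators of glycolysis and of pyruvate use were low. Pfkfb3 ranged from 0 to 0.0404 and Pfkfb4 from 0.0419 to 0.134. Pdk1 and Pdk2, kinases that switch off pyruvate dehydrogenase, were at 0.00501 ± 0.00657 and 0.0295 ± 0.0404 in the experimental line (SD, n = 5) and at 0.0357 ± 0.0669 and 0.0138 ± 0.0165 in the control line (SD, n = 6), with limma adjusted p of 0.711 and 0.77. The mean for Pdk1 in the control line was raised by its day 0 library, at 0.167. Ldha had 4 measured cytosines between -238 and -208 and was at 0.0882, 0, 0, 0.25, 0 and 0 in the control line and at 0.0119, 0.0156, 0.0556, 0, 0 and 0.25 in the experimental line by day. In both libraries at 0.25 a single cytosine at 1 gave that value, at -208 in control day 12 and at -226 in experimental day 20.

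Of the HIF subunits and Vhl, promoters were measured for Epas1, which encodes the HIF-2 alpha subunit, and for Vhl. Epas1 was between 0.0371 and 0.118 over 47 cytosines and did not pass the test (limma adjusted p = 0.908). Near its start it was unmethylated, with a mean of 0.00738 over 31 cytosines from -316 to 289 bp past the start. At its upstream edge, the cytosine at -1104 (chr17, 86752760) was at 1 in 5 control libraries and 0.848 in that of day 20. Experimental values were 0.647 at day 0 and 0.531, 0.743, 0.474, 0.2 and 0.621 later, and this was the one promoter cytosine of the genes called lower (limma adjusted p = 0.0203), although the call was lost without 3 of the 11 libraries in turn (adjusted p up to 0.0548). Together with the 3 at Eno2, 4 of the 319 promoter cytosines tested were called, against 0.615% of all cytosines tested. Vhl, the substrate receptor that brings hydroxylated HIF to degradation, was at 0, 0.00303, 0, 0, 0 and 0.00758 in the control line over 44 cytosines. In the experimental line it was at 0.00455, 0.00635, 0.00325, 0.00758, 0.0143 and 0.0114 by day. All values were near 0 and those of the lines overlapped (0.00859 ± 0.00436, n = 5, and 0.00177 ± 0.00309, n = 6, both SD; limma adjusted p = 0.132).

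Among the intracellular targets, Bnip3 (a mitophagy receptor), Ddit4 and Bhlhe40 (a transcriptional repressor) did not exceed 0.0531. Bhlhe40 was at 0, 0.00128, 0.000634, 0, 0 and 0 in the control line and at 0, 0.00444, 0.0115, 0.00139, 0.00935 and 0 in the experimental line by day. Its means were 0.00533 ± 0.00497 (SD, n = 5) and 0.00032 ± 0.000536 (SD, n = 6), with a limma adjusted p of 0.217, and the sign of the difference turned in a window of 500 bp on each side of the start (-0.03 in M-value, adjusted p = 0.893). Ndrg1, a hypoxia-induced stress protein, had an intermediate mean made of separate zones: 19 cytosines from -442 to 276 bp past the start had a mean of 0.00839, and 8 from -1039 to -696 had a mean of 0.695. Its lines did not differ beyond their spread (limma adjusted p = 0.818).

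The question of change after doxycycline was asked directly by setting the difference between the lines on days 5 to 20 against their difference at day 0, in 1 fit over all 12 libraries. None of the 30 promoters passed by limma (0.237% of all promoters did), with 1 at an unadjusted p under 0.05, Ddit4 (adjusted p = 0.645), which was at most 0.0362 in any library. That is 3.33% of the 30, against 6.64% of all promoters. For Eno2 the change was -1.82 in M-value (adjusted p = 0.973) and for Angptl4 0.76 (adjusted p = 1). A fit of beta values in place of M-values called 1 of the 30, Pdk1, whose control day 0 library was its highest, where 0.777% of all promoters were called. This test rests on 1 day 0 library per line, which was assumed to vary like the others.

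The gene bodies, taken from 500 bp past the start to the end of the gene, were measured for 32 of the 41 genes, among 15617 in all. They spanned the whole scale, with a median mean beta of 0.551 against 0.673 over all gene bodies, and 6 of the 32 (Aldoa, Gapdh, Pgam1, Eno1, Pkm and Hif1a) were under 0.1, against 8.59% of all. At Aldoa, Eno1 and Pkm, part or all of these cytosines also lay in the promoter window of a downstream start of the same gene. Of the 11 genes with no measured promoter, 8 had a measured gene body. Hk1, the housekeeping hexokinase, was at 0.713 to 0.788 over 97 cytosines, and Slc2a3, a glucose transporter, at 0.283 to 0.467 over 33. Hif1a was at 0 to 0.021 over 9 cytosines and Hif3a at 0.384 to 0.612 over 28. Aldoc ranged from 0.856 to 0.987, Ca12, a membrane carbonic anhydrase, from 0.763 to 0.93, and Ldhb, the heart-type lactate dehydrogenase, from 0 to 0.595. Pdk4, Arnt and Ankrd37 had neither region measured. At Arnt 2 promoter cytosines were listed, both at 0 in all libraries, and at Aldoc 2, at 0.886 ± 0.117 (SD, n = 5) and 0.885 ± 0.203 (SD, n = 6).

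Between the lines 1 of the 32 gene bodies, Ca9, was called, and it was lower in the experimental line, where limma called 4.53% of all gene bodies. With no adjustment 2 of 32 had p under 0.05 (6.25%, against 20.5% of all), the other being Pfkp at 0.525 ± 0.0281 (SD, n = 5) and 0.472 ± 0.0224 (SD, n = 6). Ca9 encodes carbonic anhydrase 9, a widely used marker of HIF activity. Its body (chr4:43507526-43513729, plus strand, 21 cytosines) was at 0.681, 0.653, 0.71, 0.688, 0.644 and 0.648 in the control line. Experimental values started at 0.714 at day 0 and then had 0.525, 0.513, 0.548, 0.452 and 0.491. The day 0 libraries of the lines were alike, and every experimental library from day 5 on was below every control library, which held for 6.26% of gene bodies in either direction. The means were 0.506 ± 0.0362 (SD, n = 5) and 0.671 ± 0.0266 (SD, n = 6), with an M-value difference of -0.97 ± 0.13 (SE; limma adjusted p = 0.00491), and the call held with each of the 11 libraries left out in turn (adjusted p at most 0.0134). It was lost in a fit with a block for day (limma adjusted p = 0.0728). The change since day 0, a test added for gene bodies after these values were seen, was -1.18 in M-value and did not pass (limma adjusted p = 0.658, where 0.032% of gene bodies passed).

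The lower values at Ca9 lay in 1 stretch that is also the start of another gene. Of the 21 cytosines, 16 lay 1178 to 1886 bp past the Ca9 start (chr4:43508204-43508912), and 14 of these had the lower mean in the experimental line. Their mean was 0.383 ± 0.0441 (SD, n = 5) against 0.619 ± 0.0276 (SD, n = 6), with 0.667 in the experimental day 0 library. The other 5, 5957 to 6057 bp past the start, were at 0.899 ± 0.0335 (SD, n = 5) and 0.837 ± 0.119 (SD, n = 6). Arhgef39, a gene on the opposite strand, starts at 43508747 within that stretch, and 14 of the cytosines made up its promoter in the same data. The Arhgef39 promoter had an M-value difference of -1.48 ± 0.19 (SE; limma adjusted p = 0.00578), which was not called with experimental day 0 counted as experimental (adjusted p = 0.0588), and its change since day 0 had an adjusted p of 0.219. No cytosine of the Ca9 promoter was listed in all libraries.

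Single cytosines inside the gene bodies were called at 8 of 621 positions tested, 3 higher and 5 lower in the experimental line (1.29%, against 0.615% of all cytosines tested). At Hk1, the cytosine at chr10, 62297135, was at 0, 0.143, 0, 0, 0 and 0.0833 in the control line and at 1 at day 0 and 0.909, 0.818, 0.875, 1 and 1 later in the experimental line (limma adjusted p = 0.00636). The lines differed there by nearly the whole scale, at day 0 as well. At Hk2, adjacent cytosines at chr6, 82753192 and 82753198, were at 0.148 or below in the control line and between 0.235 and 0.692 in the experimental line, with 0.35 at day 0 for both. The 5 lower ones, at Hk1 (2), Pfkm, Epas1 and Ca12, were at 0.886 or above in each control library and between 0.462 and 0.974 in the experimental libraries of days 5 to 20. Of the experimental day 0 values of these 5, 1 was at 1 (Hk1, 62342661) and the others lay between 0.605 and 0.882. In the 11 fits that each lacked 1 library, the 3 higher calls and that at Hk1, 62329935, were kept, and the other 4 were lost in 8 to 10 of them (adjusted p up to 0.11). With a block for day none of the 8 was called, but that fit called 0 of all 508351 cytosines tested.

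Other genes of the same pathways were read from lists outside the 41: 34 of glycolysis, gluconeogenesis and pyruvate use, 19 regulators of HIF, 41 further hypoxia targets and 11 receptors of the secreted peptides. Of these 105, 73 promoters were measured, and 1 was called higher and 0 lower, where 2.45% of all promoters were called. At an unadjusted p under 0.05 by limma there were 16 (21.9%, against 18% of all promoters). The one called was Bnip3l, a mitophagy receptor related to Bnip3, at 0.107 ± 0.00808 (SD, n = 5) and 0.0591 ± 0.0142 (SD, n = 6) over 59 cytosines (limma adjusted p = 0.0282). The Bnip3l promoter was at 0.107 in the experimental day 0 library too, above the highest control library (0.0792). None of the 73 passed the test of change since day 0.

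The libraries listed 932307 to 1716381 cytosines each, of which 606488 autosomal ones were shared by all 12, and the mean beta over the shared cytosines was 0.434 to 0.447 in the experimental and 0.427 to 0.434 in the control libraries. Promoters of 6 fibroblast markers ran from 0.00104 to 0.867 in the control line, with 3 of them under 0.1, and those of 4 germline genes from 0.87 to 0.947, and of these and of 7 measured promoters of epithelial, endothelial and haematopoietic markers none was called. Exon positions were not assigned, so cytosines of the floxed exon were not looked up and the deletion of Sdhc was not checked here. Its promoter was at 0 to 0.114 over the 12 libraries.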

How the data were processed

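RRBS of 12 iMEF libraries was analysed. Per the labels, the authors used Bismark and the mouse build mm10. The deposited value of a cytosine is a methylation percent, and beta values are these over 100. No read count was given with these percent values, so the depth is unknown, no coverage minimum was set and no counting interval is given. The Bismark version is not given in the sources used here.

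Starts were the most upstream curated RefSeq start of GRCm38.p6 (25748 genes) or else the upstream end of the annotated gene (7796 genes). For the latter the strand was taken by symbol from an older annotation. The upstream end of the gene was used for Slc2a3, Epas1, Angptl4, Ndrg1 and Bhlhe40. Exons and introns were not assigned. Autosomal cytosines listed in all 12 libraries were averaged over promoters and gene bodies with at least 3 of them, and each cytosine counted as 1 site whichever strand it was on. Mean beta values were turned into M-values, log2((beta + 0.01)/(1 - beta + 0.01)), and compared with limma 3.58.1 in R 4.3.3 over all features, with p-values adjusted by Benjamini-Hochberg and called under 0.05. Single cytosines were tested in the same way at the 508351 positions whose value was not constant. The experimental day 0 library was left out of the comparison of the lines, as in the study. Python 3.11.15 with pandas 2.3.3 was used for tables.

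The members and lists were chosen with earlier results of these data known. Genes given with all 12 values passed a test, or had in the promoter fit an unadjusted p under 0.05, a difference of at least 0.05 or a range of at least 0.2; of other pathway genes, those past the threshold were named. Stretches of cytosines within a gene and the Arhgef39 promoter were chosen after their values were seen. The limma fits of promoters and gene bodies were also run on simulated data with independent libraries. Such data do not cover the dependence between days of a line or other differences between the lines. Alternatives were other offsets, scales, windows, site filters and starts, a replicate block by day, and each library left out.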

Additional observations from a re-analysis of the deposited data

Results flagged for a closer look

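A library was singled out where its gap to the next was large against the range of its own group (Dixon's criterion). Of 121 groups of libraries at the genes, 19 (15.7%) had such a library, and chance gives about 1 in 20 where values are normally distributed. In 7 of the 19 the other libraries were all at 0, so that any value above 0 met the criterion, and the share cannot be read against that rate. No cause was tested. Control day 12, with the fewest cytosines listed, held 5 of them and control day 0 held 3.

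Among promoters of glycolytic enzymes all such values were small. Pfkl was at 0.0119 and Tpi1 at 0.0274 in experimental day 16, and Tpi1 at 0.00172 in control day 9, each with the rest of its group at 0. Gapdh was at 0.00182 in experimental day 9 (others 0) and at 0.0573 in control day 12 (others at most 0.0199). Eno1 was at 0.00649 in control day 5 (others 0) and Pkm at 0.00862 in control day 0 (others at most 0.00298).

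Ldha was at 0.25 in experimental day 20 and at 0.25 in control day 12, where the others reached 0.0556 and 0.0882. Pdk1 was at 0.167 in control day 0 (others at most 0.0476), Pdk2 at 0.0987 in experimental day 9 (others at most 0.0239) and Ddit4 at 0.0362 in control day 0 (others at most 0.00639).

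In gene bodies, control day 12 was at 0.479 for Slc16a1 (others 0.562 to 0.6), at 0 for Ldhb (others 0.249 to 0.351) and at 0.311 for Vegfa (others 0.261 to 0.272). Hk2 was at 0.501 in control day 16 (others 0.427 to 0.446) and Hif3a at 0.419 in experimental day 20 (others 0.576 to 0.612). Gapdh was at 0.00769 in experimental day 5 and Eno1 at 0.00158 in control day 20, with the rest of each group at 0.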

How the results depend on the processing

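The limits are the same throughout: 1 library per line and day, 1 line per genotype, no read counts and cytosines kept only where all 12 libraries listed them. Over all promoters, libraries of the same day did not deviate together (correlations of deviations -0.0353 to 0.0159), although the Gpi1 promoter was highest on day 12 in both lines. Whether a day had a shared effect at single genes was not tested. With a replicate block by day, the calls fell from 340 to 8 promoters, from 708 to 45 gene bodies and from 3124 to 0 cytosines, and the change after doxycycline from 33 to 0 promoters and from 5 to 0 gene bodies. Eno2, Angptl4, the Ca9 gene body and the Arhgef39 promoter lost their calls under this block (adjusted p = 0.106, 0.123, 0.0728 and 0.0965), as did the 12 called cytosines. The promoter count was 548 with experimental day 0 counted as experimental, 187 with an offset of 0.001 and 220 in a window of 500 bp on each side. The change after doxycycline gave 108 promoters on beta values, 65 with an offset of 0.05 and 0 as a slope per day, and for gene bodies 3 with an offset of 0.05 and 0 as a slope. Cytosines called were 5954 on beta values and 5275 with an offset of 0.05. Over the fits that each lacked 1 library, the counts ran from 186 (without experimental day 12) to 357 promoters, 365 (without experimental day 12) to 721 gene bodies, 2240 to 3741 cytosines, 23 to 51 promoters for the change and 4 to 9 gene bodies for the change. Of the genes, 0 promoters were called with an offset of 0.001 (Eno2 adjusted p = 0.076, Angptl4 0.0648), Angptl4 alone with cytosines listed in 10 libraries and Eno2 alone in the narrower window. Slc16a3 turned to 0.1088 in M-value with cytosines listed in 10 libraries and Bhlhe40 to -0.03409 in the narrower window. The cause of these shifts was not tested.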

Other observations

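Several genes had starts besides the one used, and their levels differed within a gene. At Pfkm, the 4 cytosines around a downstream start were at 0.821 ± 0.0827 (SD, n = 5) in the experimental line and 0.924 ± 0.0585 (SD, n = 6) in the control line, whereas its first start was at most 0.0548. Pfkfb3 had 27 cytosines at a downstream start with means of 0.169 ± 0.0486 (SD, n = 5) and 0.203 ± 0.0547 (SD, n = 6), against at most 0.0404 at the first. Hk1, with no cytosine at its first start, had 5 at a second one, at 0.0303 ± 0.0467 (SD, n = 5) and 0.00119 ± 0.00292 (SD, n = 6). These starts were not tested.

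In the last part of the Epas1 promoter, 316 to 492 bp past the start, each of 14 cytosines had the higher mean in the experimental line. The stretch was at 0.144 ± 0.0887 (SD, n = 5) and 0.0545 ± 0.05 (SD, n = 6), with 0.0672 in the experimental day 0 library, and values of the lines overlapped. Experimental day 20 was at 0.292, the other experimental libraries after day 0 between 0.0593 and 0.145, and the control libraries between 0 and 0.111. Cytosines this close are not independent. The stretch was chosen after its values were seen and was not tested.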
